A study of Capra hircus with 3 samples.

Results

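Messenger RNA of goat (Capra hircus) longissimus dorsi, the large back muscle beside the spine, was compared between the youth stage (9 months) and the kid stage (2 months). The comparison used every entry of the deposited expression table whose mean over the kid, youth and adult (24 months) libraries reached 1 FPKM, which were 12121 of 24689 entries. FPKM is the fragment count of a gene divided by its length and by the library's mapped fragments. Each stage had 1 library, so no difference has a replicate check, no test between stages was run, and the values hold for these libraries, not for the stages in general. No treatment, genotype, sex or breed and no pooling of animals is given in the sources used here. A gene is called 1.5-fold or 2-fold apart where the difference of log2(FPKM + 1), youth minus kid, passes that fold. A printed fold is the plain ratio of FPKM, without the added 1, so it can exceed 1.5 in a gene that is not called. The parentheses after a fold hold the exact 95% interval of the ratio, worked out from reads, which covers counting error only.

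The goat longissimus is a mixed muscle whose fibres keep enlarging after birth, with few new fibres formed. A piece of it holds fibres together with fibroblasts, fat cells, vessels, nerve sheath and immune cells, and all of these contribute RNA. Beside the contractile and metabolic genes, such a sample expresses ligands, receptors and their inhibitors, plasma and clotting proteins, calcium-binding S100 proteins, transcription factors, and large families for RNA, protein and membrane traffic. In bulk samples, fewer cells of a type and less RNA per cell cannot be told apart.

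The totals behind the FPKM values were 15829500 reads or read pairs in kid and 14920700 in youth, and a single read per 1 kb of gene equalled 0.0632 and 0.0670 FPKM. All tested genes gave whole reads, taken at the shortest gene length that fitted. The reads printed for some genes may therefore be too few and their intervals too wide. No label says whether both mates of a pair were counted, and if they were, the intervals are too narrow. Of the tested genes, 392 were below 1 FPKM in kid or youth and passed the minimum through the other libraries. The extraction label names mammary tissue while the tissue label names longissimus dorsi. Of 7 listed mammary epithelium genes, 5 were listed at 0 in kid and 5 in youth, and the muscle fibre genes summed to 51530.3 and 60266 FPKM. The summed FPKM of adipocyte markers was 109.8 in kid and 50.8 in youth. That sum leaves out FABP4, which was not matched by symbol. An entry described as adipocyte fatty acid-binding protein (100861279) was at 161 and 68.7 FPKM. Schwann cell markers summed to 207 and 120.9, neutrophil markers to 7.43 and 2.81, and endothelial markers to 158 and 140.0. Fibroblast markers summed to 1042 and 1287, where COL1A1, COL1A2, COL3A1 and LUM were higher in youth and DCN, DPT and PDGFRA lower. Smooth muscle and pericyte markers were lower in 6 of 6 cases, beside 64.3% of all genes, and the interval lay below 1 in 4. The list includes DES, also a filament protein of the muscle fibres, and DES was 1 of the 4. MYH11 was at 28.6 and 14.5 FPKM, while RGS5 was nearly level at 80.9 and 78.7. The youth over kid ratios of MYH11 (0.506), TAGLN (0.693) and ACTA2 (0.699) lay below the median ratio of all tested genes, 0.936. Those of DES (0.971), RGS5 (0.973) and CSPG4 (0.954) lay above it. Macrophage markers summed to 50.5 and 57.6. Of 5 listed red cell genes, the 3 matched by symbol (ALAS2, SLC4A1 and HBM) were at 0 in both libraries. The globin genes HBB and HBA1 were not matched, so the share of blood RNA cannot be read from this list.

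Most genes stood close together in the youth and kid libraries. In all, 11482 of 12121 genes were less than 1.5-fold apart, and the difference of log2(FPKM + 1) had a median of -0.08. At least 2-fold higher in youth were 51 genes (0.421%), and at least 2-fold lower were 76 (0.627%). The numbers past 1.5-fold were 182 higher (1.5%) and 457 lower (3.77%). These 4 shares are the background against which the families below are read. The balance of directions depended on scaling, and with the median ratio brought to 1 there were 60 higher and 65 lower genes past 2-fold and 273 and 317 past 1.5-fold. Quantile normalization gave 62 and 57 past 2-fold and 303 and 284 past 1.5-fold, and trimmed mean factors gave 59 and 65 past 2-fold and 271 and 324 past 1.5-fold. Beyond counting error, 1401 genes (11.6%) were higher and 3266 (26.9%) lower in youth, but set against the median ratio of 0.936 these became 2293 and 1940. Just inside the 2-fold threshold lay THBS1 and INHBA among lower genes, with differences of -1.0009 and -1.0009, and just outside it a guanylate binding protein 4 entry (102172615) at 0.9971 among higher ones. At the filter on mean FPKM, NIM1K was just inside and CEP89 just outside, with mean values of 1.00001 and 0.9997 FPKM.

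**Figure D1:**
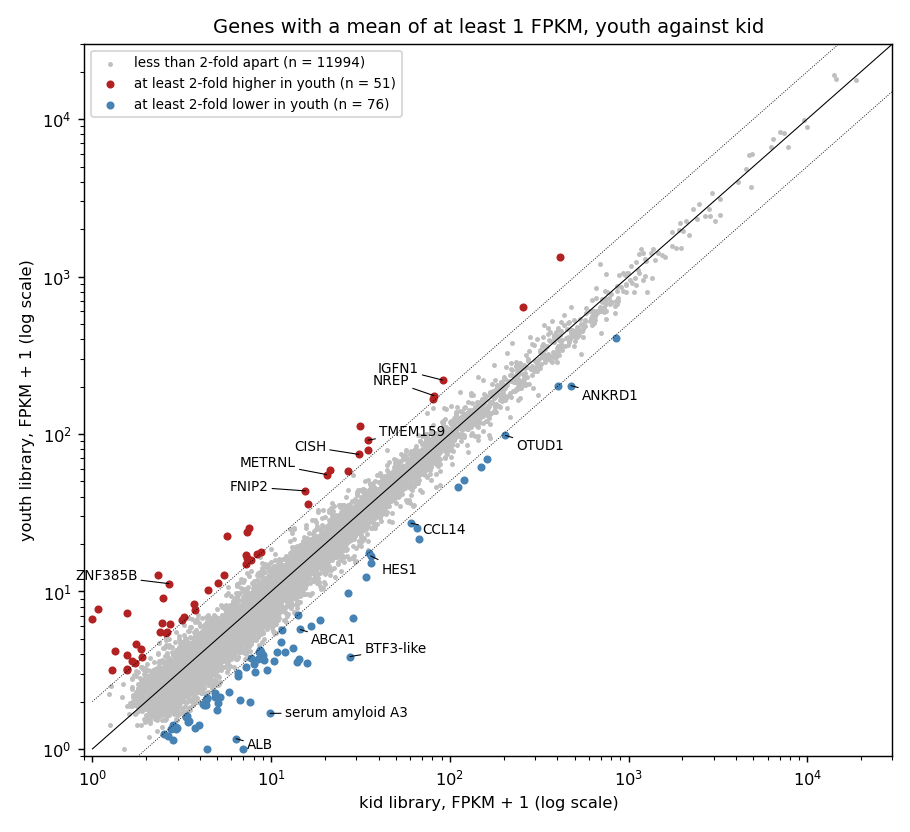
FPKM + 1 of each tested gene in the kid library (x axis, log scale) against the youth library (y axis, log scale). The solid line marks equal values and the dotted lines 2-fold; 51 genes lie at or above the upper line and 76 at or below the lower one, with a selection named.

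Several genes of secreted muscle factors were well above their kid level in the youth library. Of 46 listed myokines and muscle-secreted factors, 30 passed the minimum, 5 were at least 1.5-fold higher and 1 lower, and their median difference was 0.12 against -0.08 over all genes. METRNL, a secreted relative of meteorin made by muscle and fat, stood at 19.4 FPKM in kid and 54.3 in youth, with 61.8 in adult. It was 2.79-fold higher (2.50 to 3.11) in youth than in kid. IGFN1, an immunoglobulin and fibronectin domain protein of the muscle Z-disc that was grouped here by name, was at 90.1, 219 and 158 FPKM in the same order, and 2.43-fold higher (2.34 to 2.53) in youth. Apelin (APLN), a peptide that signals through a G protein-coupled receptor in muscle and vessels, was at 2.27, 5.83 and 3.72 FPKM. The C1q and tumour necrosis factor-related proteins stood apart from each other, since C1QTNF6 was at 4.49 against 1.60 FPKM in kid, 2.81-fold higher (2.11 to 3.77), and C1QTNF9 at 9.49 against 18.4 FPKM, 1.94-fold lower (1.62 to 2.33). The most abundant member was the matrix proteoglycan decorin (DCN), at 416 FPKM in kid and 369.6 in youth.

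Single regulators of cytokine, metabolic and growth factor signalling stood well above their kid level in youth, while most of their families did not pass 1.5-fold. CISH, which a hormone or cytokine receptor induces through STAT5 and which then restrains that receptor, stood at 29.99 FPKM in kid and 73.2 in youth, with 27.5 in adult, and was 2.44-fold higher (2.25 to 2.65) in youth. SOCS3, the related inhibitor of the STAT3 branch, was lower in youth, at 3.36 against 5.34 FPKM. Of 20 tested JAK, STAT and SOCS genes, CISH alone passed 1.5-fold on the log2(FPKM + 1) scale used for calls. FNIP2, a partner of folliculin and of AMP-activated kinase, was at 14.6, 42.5 and 34.8 FPKM in kid, youth and adult, 2.92-fold higher (2.68 to 3.18) in youth. It was the only 1 of 22 tested genes of AMP-activated and related kinases past 1.5-fold. Another regulator, the hepatocyte growth factor receptor MET, was at 7.67 FPKM in kid and 15.5 in youth, 2.02-fold higher (1.84 to 2.22).

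Growth factor families held single members that were lower and others that were higher in the youth library. Among 17 tested fibroblast growth factors and receptors, FGF7 and FGF1 were at least 1.5-fold lower and FGF6, a ligand made in muscle, and FGFR3 (entry 102187310) at least 1.5-fold higher. FGF7, which acts on epithelia, was at 3.06 FPKM in kid and 1.53 in youth, and FGF1 at 2.87 and 1.49. FGF6 was at 1.60 and 3.04 FPKM, 1.90-fold higher (1.19 to 3.11), and FGFR3 at 1.57 and 3.95. In the Notch family of 24 tested genes, the repressor HES1, a direct target of Notch receptors, was at 35.1 FPKM in kid and 15.8 in youth, with 30.8 in adult, 2.23-fold lower (1.85 to 2.69) in youth. HEYL, another Notch target, was at 8.71, 13.9 and 8.42 FPKM, 1.60-fold higher (1.35 to 1.89) in youth, and these were the only members past 1.5-fold. Of 41 tested genes of TGF-beta and BMP signalling, 3 were at least 1.5-fold lower and 0 higher. CHRDL2, an extracellular binder of bone morphogenetic proteins, was at 6.70, 2.81 and 7.73 FPKM in kid, youth and adult, and BMP5 at 3.84, 1.70 and 3.74. The activin subunit INHBA was at 1.84, 0.418 and 1.47 FPKM from only 28, 6 and 26 reads. Each of these genes was lowest in the youth library.

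**Figure D2:**
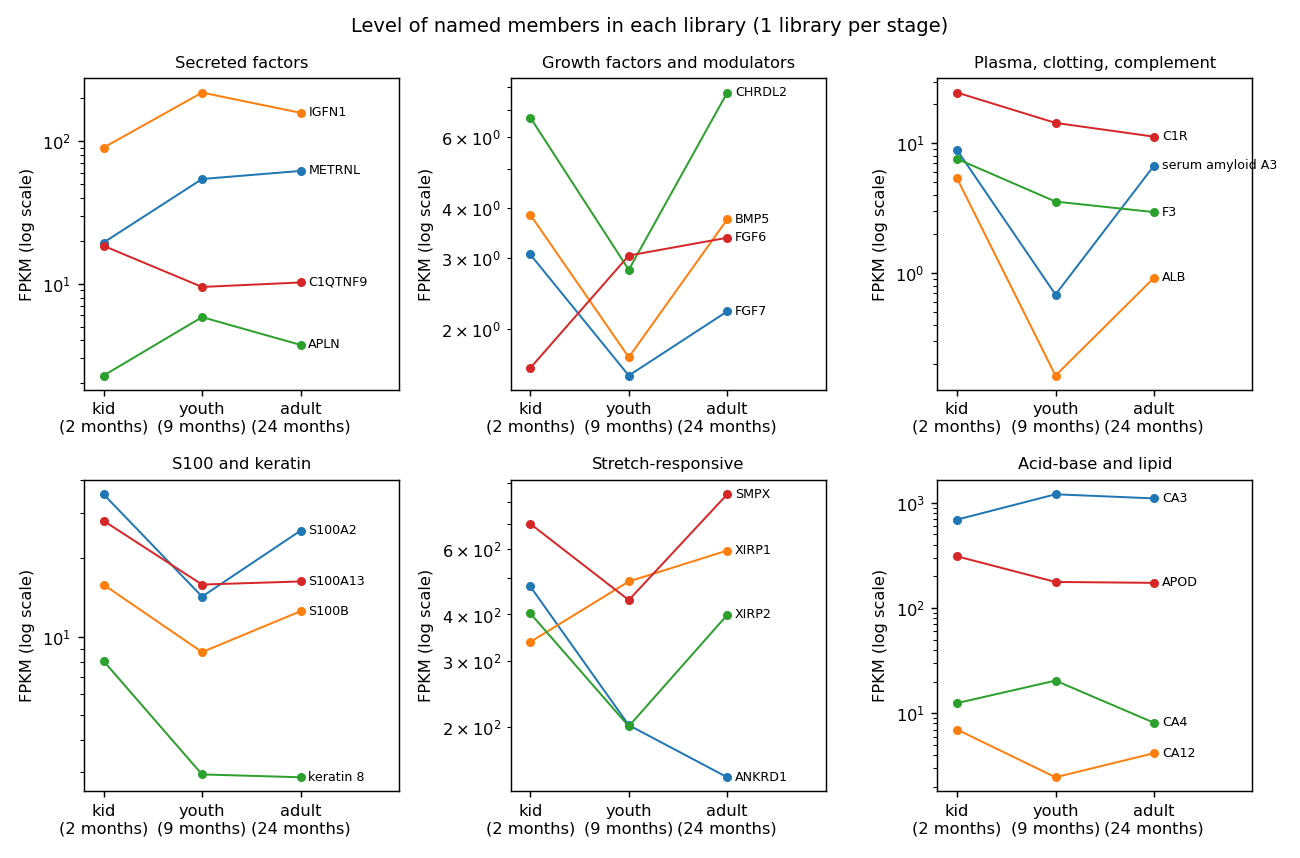
FPKM (y axis, log scale) of named members in the kid, youth and adult libraries (x axis), with 1 library per stage and no error bars. CHRDL2 and BMP5 are lowest in youth, METRNL is lowest in kid, and keratin 8 is highest in kid.

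Wnt, ephrin and cytokine genes held members on both sides. Among 30 tested Wnt genes, the ligand WNT5A was at 3.81 FPKM in kid and 2.13 in youth, the secreted modulator DKK3 at 7.42 and 4.15, and RSPO3, which strengthens Wnt signalling, at 1.34 and 3.09, 2.31-fold higher (1.61 to 3.37). Ephrin-A4 (EFNA4), a membrane-bound ligand of Eph receptors, was at 7.35 FPKM in kid and 16.4 in youth, with 8.19 in adult, while the receptor EPHA4 was at 1.57, 0.539 and 1.18. EFNA4 was 2.22-fold higher (1.84 to 2.69) in youth and EPHA4 2.92-fold lower (2.12 to 4.09). In the interleukin group, 4 of 39 tested members were at least 1.5-fold lower and 1 higher. IL33, an alarm cytokine stored in the nuclei of stromal and endothelial cells, was at 12.7 FPKM in kid and 6.27 in youth, 2.02-fold lower (1.74 to 2.36), and the receptor chain IL17RB at 3.45 and 1.30. An interleukin-2 receptor beta-like entry (102177599), a chain carried by T and natural killer cells, was higher at 5.76 against 3.10 FPKM.

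The chemokine ligands past 1.5-fold were lower in youth, and the receptor CXCR6 was higher. Of 25 tested chemokine and receptor genes, 4 were at least 1.5-fold lower and 2 higher, one of them the chemokine-like membrane protein CMTM8, whose interval included 1. CCL14 (entry 102169855), a plasma chemokine that attracts monocytes, stood at 59.7 FPKM in kid and 26.1 in youth, with 38.5 in adult, 2.28-fold lower (2.02 to 2.59) in youth. CCL16 was at 7.502 and 4.43 FPKM in kid and youth, and CCL26, an attractant of eosinophils, at 9.63 and 5.93. CXCR6, a receptor of T and natural killer cells, was at 2.71 FPKM in kid and 7.30 in youth, with 3.56 in adult, 2.69-fold higher (2.0804 to 3.51) in youth. Beside it, the T and natural killer cell markers summed to 7.48 FPKM in kid and 9.83 in youth, with 4 of 6 higher, and their part in this difference was not tested. In the tumour necrosis factor group, TNFAIP3, a brake on NF-kB signalling, was at 3.14 FPKM in kid and 0.940 in youth, and the receptor EDA2R at 13.4 and 7.55.

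Some genes of acute-phase and plasma proteins stood far higher in the kid library. This list was put together after its values were seen. Of 12 tested members, 6 were at least 1.5-fold lower in youth and 0 higher, and the count is a description of that choice. Serum amyloid A3 (entry 100860781), an apolipoprotein induced in inflammation, stood at 8.89 FPKM in kid from 83 reads, 0.682 in youth from 6 reads and 6.72 in adult. Albumin (ALB), the main plasma protein made by liver, was at 5.37, 0.162 and 0.918 FPKM from 176, 5 and 35 reads. The pattern recognition protein pentraxin 3 (PTX3) was at 4.01 FPKM in kid and 0.761 in youth, 5.27-fold lower (3.12 to 9.42), and the iron carrier transferrin (102172205) at 3.29 and 1.23. Other plasma proteins were nearer to each other, with the protease trap alpha-2-macroglobulin (102175560) at 5.63 and 6.13 FPKM and ITIH5, the most abundant of the list, at 17.05 and 19.3. In the adult library serum amyloid A3 was near its kid level, and the youth library was the low one.

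Clotting and complement genes were lower in the youth library where they passed 1.5-fold. Of 64 genes of coagulation, fibrinolysis and complement beyond C1q, 35 were tested, 6 were at least 1.5-fold lower and 0 higher, with a median difference of -0.18. The median stayed below 0 with the median ratio brought to 1, quantile normalization and trimmed mean factors. Coagulation factor X (F10) was at 4.83 FPKM in kid and 1.29 in youth, with 6.77 in adult, 3.74-fold lower (2.45 to 5.88) in youth, and tissue factor (F3), which starts clotting, at 7.59, 3.56 and 2.95. The complement protease C1R was at 24.6 FPKM in kid and 14.4 in youth, 1.71-fold lower (1.53 to 1.92), and factor B (CFB), of the alternative pathway, at 2.91 and 1.37. Thrombospondin 1 (THBS1), a matrix glycoprotein of platelets and stroma that is not in this list, was at 34.3, 16.7 and 14.8 FPKM in kid, youth and adult. CFD, a complement protease also called adipsin and secreted by fat cells, went the other way, at 5.46 FPKM in kid and 8.25 in youth. The endothelial markers given above differed less between kid and youth than F10 or F3, and their part in these differences was not tested.

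Calcium-binding S100 proteins and keratins were among the structural genes that were lower in youth. Of 32 tested annexins, S100 proteins and galectins, 6 were at least 1.5-fold lower, 3 of them 2-fold, and 0 higher. S100A2, an S100 protein best known from epithelia, stood at 35.3 FPKM in kid and 14.3 in youth, with 25.6 in adult, 2.48-fold lower (1.99 to 3.10) in youth. S100B, a Schwann cell protein, was at 15.9, 8.72 and 12.5 FPKM, and S100A13 at 27.9, 15.9 and 16.3. S100A12 (102169149), a protein of neutrophils, was at 5.56 FPKM from 43 reads and 1.92 from 14, and S100A8, of the same cells, at 2.43 from 16 and 0.483 from 3. S100B and S100A8 also belong to the Schwann cell and neutrophil marker lists above, whose sums were lower in youth too. Most of the neutrophil sum was S100A8 itself and S100A9, the latter at 3.21 FPKM in kid and 1.43 in youth. That sum is therefore not separate from the S100 genes, and the part of Schwann cells and neutrophils was not tested. Keratin 8 (102182478), an intermediate filament protein of simple epithelia that is also made in muscle, was at 8.05, 2.95 and 2.87 FPKM in kid, youth and adult, 2.73-fold lower (2.11 to 3.57) in youth. Its partner KRT18 was at 3.11, 1.44 and 1.17. KRT18 also belongs to the mammary epithelium list above, whose sum was 3.17 FPKM in kid and 1.58 in youth, most of it KRT18, and the part of epithelial cells was not tested. The muscle filament desmin (DES) was nearly level at 4115 FPKM in kid and 3994 in youth, and the nuclear lamin LMNA was at 53.7 and 69.7. Of the 13 tested intermediate filament genes, keratin 8 and KRT18 were the only ones past 1.5-fold.

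Stretch-responsive and muscle-restricted signalling proteins were split between a few members far lower in youth and a nearly level majority. Of 69 tested ankyrin repeat, LIM and related genes, 7 were at least 1.5-fold lower, 1 was higher, and the median difference was -0.04. ANKRD1, which shuttles between the titin filament and the nucleus and is induced by load, was at 475 FPKM in kid and 202 in youth, with 146 in adult, 2.36-fold lower (2.28 to 2.43) in youth. Its relative ANKRD2 was at 110.1, 44.8 and 157 FPKM, lowest in youth. The Xin proteins, which bind actin at cell junctions and repair sites, differed in direction, with XIRP2 at 403, 200.5 and 399 FPKM and XIRP1 at 338, 490.5 and 594. SMPX, a small costamere protein, was at 700.2 FPKM in kid and 437 in youth, 1.60-fold lower (1.55 to 1.65). The member past 1.5-fold in the other direction was ANKRD33B, at 12.4 and 23.9 FPKM. Among related cytoskeletal families, actin regulators included FSCN1, which bundles actin, at 12.5 FPKM in kid and 24.4 in youth, and the tubulin group the microtubule destabiliser STMN1 at 11.7 and 19.9.

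**Figure D3:**
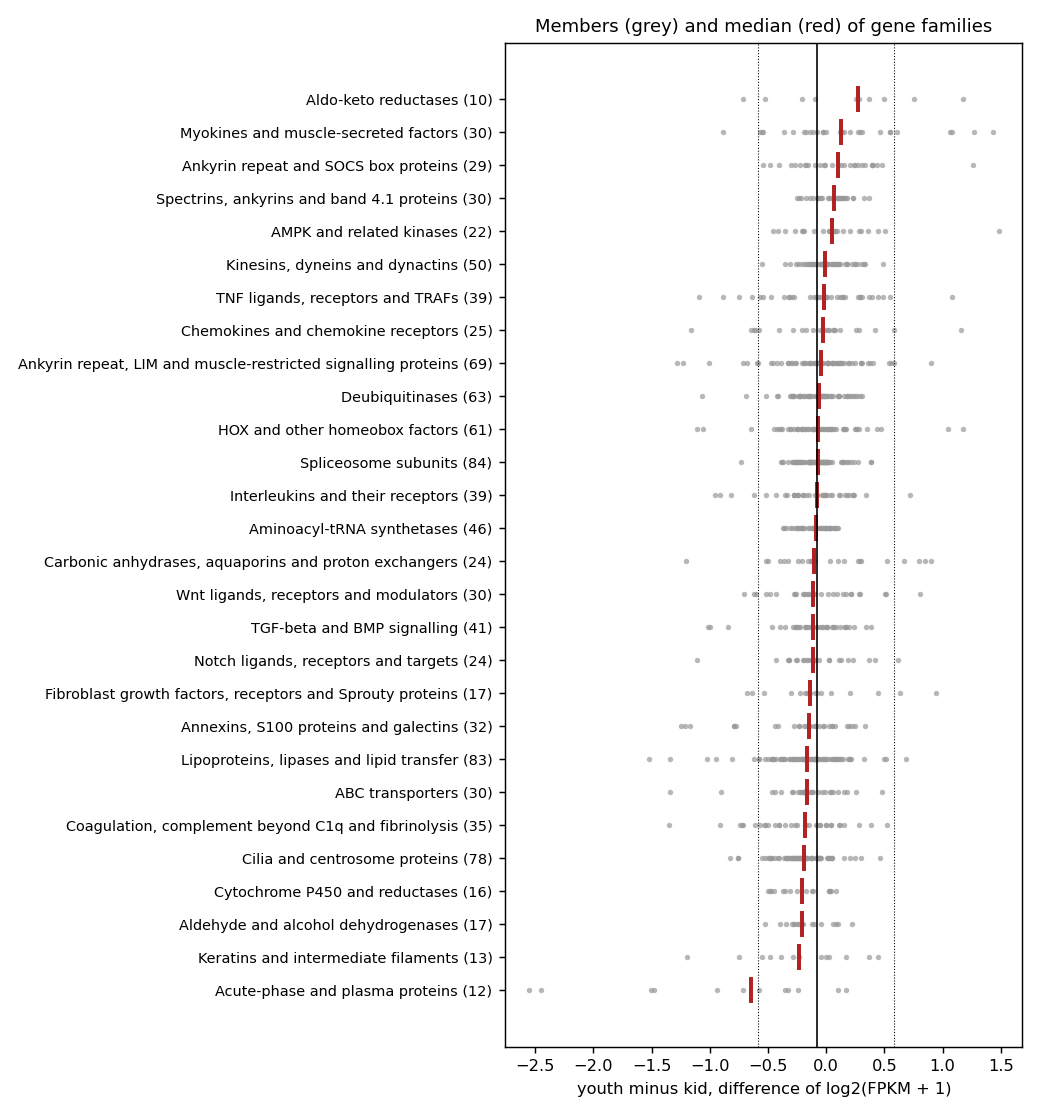
Difference of log2(FPKM + 1), youth minus kid (x axis), of every tested member (grey points) of selected families, with the number tested in brackets and the family median as a red bar. The solid line is the median over all genes (-0.08) and the dotted lines mark 1.5-fold; the median of the myokines is 0.12 and that of keratins and intermediate filaments -0.23.

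Inside the cell, signalling families held few members past 1.5-fold. Of 67 tested dual-specificity phosphatases and MAP kinases, 2 were at least 1.5-fold lower and 0 higher. They were DUSP1, which switches off stress-activated kinases, at 142 FPKM in kid and 90.4 in youth, and DUSP19 at 5.54 and 2.81. In the calmodulin and calcineurin group, the median was 0.07 over 31 tested genes and stayed above 0 under the 3 other scalings. Of these genes, 2 were at least 1.5-fold higher and 1 lower. The calmodulin gene CALM3, named by its symbol because its product text was uncharacterized, stood at 176 FPKM in kid and 272 in youth, with 203 in adult. It was 1.55-fold higher (1.504 to 1.60) in youth, and the death-associated kinase DAPK2 was at 6.14 against 3.46 FPKM. The lower member was the calcium-binding CABP1, at 1.30 FPKM from 9 reads in kid and 0.307 from 2 in youth, whose interval included 1. The scaffold AKAP12, which tethers protein kinase A, was at 12.1 and 22.5 FPKM in kid and youth, and the cyclic AMP phosphodiesterase PDE4B at 9.39 and 5.83. RRAD, a Ras-related protein of muscle that restrains calcium channels, was at 207 FPKM in kid and 328 in youth, with 331 in adult, 1.59-fold higher (1.53 to 1.65) in youth. Spectrins and ankyrins, the membrane skeleton, had a median of 0.07 over 30 tested genes and no member past 1.5-fold, and the ankyrin repeat and SOCS box proteins, adaptors of ubiquitin ligases, had a median of 0.10 with CISH their only member past it.

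Receptors, channels and membrane transporters also differed one by one. The oxytocin receptor OXTR stood at 7.83 FPKM in kid and 3.15 in youth, with 6.79 in adult, and was 2.48-fold lower (1.79 to 3.49) in youth. With the prostaglandin receptor PTGER3, at 2.98 and 1.65 FPKM, and the chemerin receptor GPR1, at 2.74 and 1.44, it made up the 3 of 56 tested G protein-coupled receptors past 1.5-fold. All 3 were lower, a share of 5.36% beside 3.77% of all genes. SCN4B, an accessory subunit of voltage-gated sodium channels, was at 15.03, 34.7 and 27.4 FPKM in the 3 libraries, 2.31-fold higher (2.03 to 2.63) in youth. TMIE, a component of the hair cell transduction complex, was at 1.48 FPKM from 13 reads in kid and 8.09 from 67 reads in youth, and at 0.490 in adult. Of 149 tested solute carriers, 3 were at least 1.5-fold higher (2.01%) and 2 lower (1.34%), beside 1.5% and 3.77% of all genes. The nucleoside carrier SLC29A2 was at 33.9 FPKM in kid and 19.9 in youth, and the zinc carrier SLC30A2 at 1.47 and 3.37. Among 82 tested glycosyltransferases, the hyaluronan synthase HAS2 was at 2.40 and 1.13 FPKM, the sialyltransferase ST6GAL1 at 3.18 and 1.60, and B3GNT3, which extends mucin-type glycans, at 0.560 and 2.97, 5.30-fold higher (3.13 to 9.53).

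Few members of the transcription factor families passed 1.5-fold, and single genes were far apart. ZNF385B, a zinc finger protein, was at 1.68 FPKM in kid and 10.2 in youth, with 2.39 in adult, 6.08-fold higher (4.68 to 8.005) in youth. Of 295 tested C2H2 zinc finger genes, 3 were at least 1.5-fold higher and 2 lower, shares below the background. Of 61 tested homeobox and T-box genes, PITX3, a paired-like factor expressed in differentiated muscle, was at 4.04, 10.4 and 8.89 FPKM and TBX3, a repressor, at 6.28, 14.03 and 6.81. PITX3 was 2.57-fold higher (1.80 to 3.72) and TBX3 2.23-fold higher (1.97 to 2.54) in youth. MEIS1, a HOX cofactor, was at 3.37 FPKM in kid and 1.096 in youth, 3.07-fold lower (2.28 to 4.197), HOXC10 at 13.6 and 8.31, and HOXC11, named here after its values were seen, at 1.96 from 17 reads and 0.366 from 3. Of 43 tested genes of the BTG, PIM and growth arrest group, 62.8% were lower by any amount, against 64.3% of all genes, and 4 were at least 1.5-fold lower. Among these were the antiproliferative BTG2 at 46.4 FPKM in kid and 26.5 in youth, the survival kinase PIM1 at 21.5 and 13.1 and the factor KLF4 at 46.4 and 30.4, while the related KLF10 was at 43.8 and 62.4 and TOB1, a relative of BTG2, at 125 and 158. The factor BHLHE40, a hypoxia- and clock-responsive repressor, was at 43.4 FPKM in kid and 78.1 in youth, 1.80-fold higher (1.70 to 1.90).

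The large families that handle RNA and chromatin hardly differed between the libraries. No member passed 1.5-fold among 47 tested DEAD-box and DEAH-box helicases, 46 aminoacyl-tRNA synthetases, 94 RNA polymerase subunits and general factors, 61 SR proteins and hnRNPs, or 61 nucleoporins and transport receptors. The same held for 99 histone methyltransferases, demethylases and Polycomb genes and 49 coregulators and Mediator subunits. Of 84 spliceosome subunits, the export factor THOC6 alone passed 1.5-fold, at 6.72 FPKM in kid and 3.66 in youth. One exception among modification enzymes was METTL21C, a lysine methyltransferase restricted to muscle, which was at 30.6 FPKM in kid and 111 in youth, with 69.6 in adult. Of 86 tested genes for tRNA and mRNA modification by name, it was the only 1 at least 1.5-fold higher, and 3 were lower, among them NSUN6, a tRNA methyltransferase, at 9.04 and 5.31.

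Several families of protein handling were equally even, with single outlying genes. Among 46 ubiquitin-conjugating enzymes and 33 HECT and U-box ligases no member passed 1.5-fold, and of 100 Kelch, BTB and cullin genes 2 were lower. The deubiquitinase OTUD1 stood apart at 204 FPKM in kid and 96.9 in youth, with 32.4 in adult, 2.10-fold lower (2.01 to 2.204) in youth. Of 63 tested deubiquitinases 2 were at least 1.5-fold lower, the other being USP54 at 12.2 and 7.15 FPKM. Motor proteins showed the same evenness, with no member of 50 tested kinesin, dynein and dynactin genes past 1.5-fold. The cilia and centrosome genes had a median difference of -0.19 over 78 tested members, and 84.6% were lower by any amount (64.3% of all genes). At least 1.5-fold lower were 3 of them (3.85%), near the 3.77% of all genes, among them CFAP54, a protein of motile cilia, at 2.72 FPKM in kid and 1.201 in youth. Less even were 28 tested metalloproteinases, with 2 at least 1.5-fold higher (7.14%, beside 1.5% of all genes) and 1 lower. Among 29 tested serpins and protease inhibitors, 1 was higher and 2 were lower (6.90%). The peptidase inhibitor CST6, a cystatin, was at 14.7 FPKM in kid and 25.5 in youth, and the aggrecanase ADAMTS1 at 17.8 and 9.81.

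Lipid transport and handling genes past 1.5-fold were mainly lower in the youth library. Of 83 tested lipoprotein, lipase and lipid transfer genes, 6 were at least 1.5-fold lower and 1 higher. ABCA1, which exports cholesterol to apolipoproteins, was at 13.5 FPKM in kid and 4.73 in youth, with 5.20 in adult, 2.86-fold lower (2.63 to 3.11) in youth. Another ABC transporter, the drug and urate exporter ABCG2, was at 3.73 and 1.53 FPKM in kid and youth, and no other of 30 tested ABC transporters passed 1.5-fold. Hormone-sensitive lipase (LIPE), which releases stored fat, was at 10.5, 4.67 and 9.34 FPKM, and the lipocalin APOD at 310.0, 177 and 173. VLDLR, a receptor for triglyceride-rich particles, was higher in youth at 24.2 against 14.7 FPKM, 1.65-fold higher (1.51 to 1.80). The adipocyte markers given above were lower in youth in 4 of 5 matched cases, LEP excepted at 0.138 and 0.219 FPKM, and the part of fat cells in the lower value of LIPE was not tested.

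Acid-base genes showed opposite directions within 1 family. Of 24 tested carbonic anhydrases, aquaporins and proton exchangers, 4 were at least 1.5-fold higher and 1 lower. Carbonic anhydrase 3 (CA3), an abundant enzyme of slow muscle, stood at 692 FPKM in kid and 1205 in youth, with 1101 in adult, 1.74-fold higher (1.71 to 1.77) in youth. The membrane enzyme CA4, found on capillaries and fibres, was at 12.5, 20.4 and 8.12 FPKM. The adaptor protein SLC9A3R2, which binds transporters at the membrane, was at 79.9, 144 and 85.8. CA12, another membrane enzyme, was the lower member at 6.99, 2.46 and 4.17 FPKM, 2.84-fold lower (2.35 to 3.45) in youth.

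Among enzymes of amino acid, cofactor and redox metabolism, single genes stood apart. Of 87 tested amino acid and urea-related enzymes, 6 were at least 1.5-fold lower and 2 higher. By any amount 67.8% were lower, near the share over all genes given above, and of the glutathione transferases and peroxidases 52.8%. Serine dehydratase (SDS) was at 10.9 FPKM in kid and 5.60 in youth, and GATM, which makes the creatine precursor, at 4.13 and 2.30. Argininosuccinate synthase (ASS1) was higher at 26.6 against 16.8 FPKM and the mitochondrial arginase ARG2 at 4.58 against 2.41. Endothelial nitric oxide synthase (NOS3), which uses arginine as well, was at 4.48 FPKM in kid and 11.8 in youth, with 4.90 in adult, 2.63-fold higher (2.24 to 3.09) in youth. No member passed 1.5-fold among 16 cytochrome P450 and reductase genes, whose median was -0.21, 17 aldehyde and alcohol dehydrogenases, whose median was -0.21, or 42 genes of coenzyme Q, lipoate and iron-sulfur assembly, whose median was -0.18. All 3 medians stayed below 0 under the 3 other scalings.

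Among single metabolic genes chosen after their values were seen, the mitochondrial malic enzymes were lower in youth. ME2 was at 27.6, 15.3 and 29.995 FPKM in kid, youth and adult, and ME3 at 6.23, 3.07 and 4.99, 2.03-fold lower (1.56 to 2.65) in youth. NMRK2, a muscle kinase that makes a precursor of NAD, was at 216, 128 and 410.0 FPKM. A metallothionein-1A-like gene (102188618), whose product binds zinc and copper, was at 12.5 and 6.42 FPKM in kid and youth, and metallothionein 2A (102188072) at 29.8 and 18.8. Copies of the aldo-keto reductases, which reduce aldehydes and steroids, differed, since a dihydrodiol dehydrogenase 3-like gene (102187932) was at 34.05 FPKM in kid and 78.3 in youth, and a second gene with that product text (102176897) at 3.84 and 1.94.

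**Figure D4:**
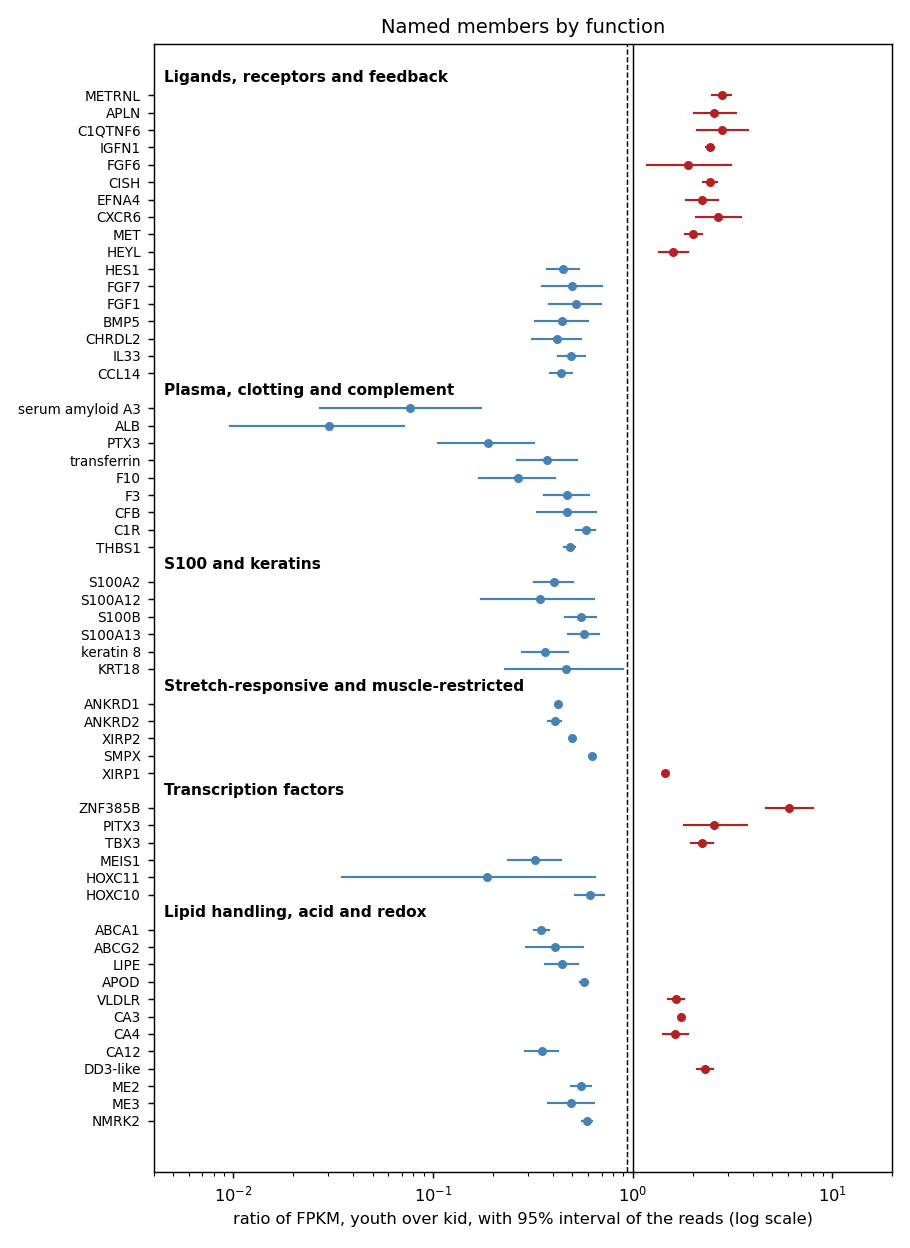
Ratio of FPKM, youth over kid (x axis, log scale), of named members grouped by function, with exact 95% intervals of the reads as horizontal bars (counting error only). Red points lie above 1 (solid line) and blue points below it, and the dashed line marks the median ratio of all tested genes, 0.936.

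Some entries that share a product text lay on opposite sides, and the pairs below were chosen for that. No source used here says how reads matching several related genes were counted, so the values of these entries are uncertain. Among class II histocompatibility genes, an SLA-DQ alpha-like entry (102179937) was at 0 FPKM from 0 reads in kid, 5.66 from 105 reads in youth and 1.05 in adult. With the kid library set to the floor of 3 reads, it was 37.1-fold higher in youth, a value that depends on that floor and is not an interval limit. A second entry with that product text (102172887) was at 9.41 FPKM in kid and 2.60 in youth, 3.62-fold lower (2.60 to 5.15). Of the class I entries with 1 product text, 102182025 was at 26.1 and 56.8 FPKM and 102184389 at 6.58 and 3.21, while 102190685 was nearly level at 27.6 and 29.2. A pair of Niemann-Pick C1 protein-like genes was at 11.5 and 7.05 FPKM (entry 102189033) and at 1.11 and 2.80 (entry 102188400) in kid and youth. The lowest difference of all was that of a transcription factor BTF3-like entry (102186300), at 26.6 FPKM in kid and 2.86 in youth, with 1.37 in adult.

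Entries without a gene symbol passed the thresholds more often than named genes. Without a symbol were 1860 tested genes (15.3% of all), and they made up 20 of the 51 genes 2-fold higher and 31 of the 76 2-fold lower. Of 321 entries with an uncharacterized product and no symbol, 38 (11.8%) were at least 1.5-fold lower, against 3.002% of genes with a symbol. Of 418 new loci named by the authors, 22 (5.26%) were at least 1.5-fold higher and 32 (7.66%) lower. These kinds of entry held fewer reads, with a median of 85.0 reads over kid and youth for uncharacterized products and 116 for new loci, against 609 for genes with a symbol, and the part of read depth was not tested. The most abundant new locus past 1.5-fold, Novel00594, was at 79.6 FPKM in kid and 165 in youth, 2.076-fold higher (1.90 to 2.26), and was chosen after its value was seen. The transmembrane protein TMEM159, a lipid droplet protein, was at 33.9, 90.5 and 76.5 FPKM in the 3 libraries, 2.67-fold higher (2.41 to 2.95) in youth, and NREP, a protein of regenerating nerve and muscle, at 80.6, 174 and 47.1, 2.16-fold higher (2.06 to 2.27).

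**Figure D5:**
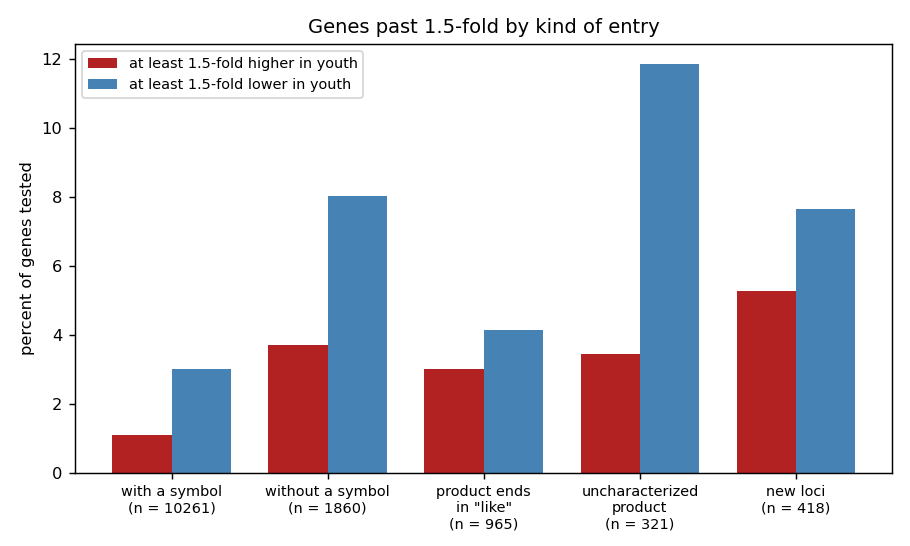
Percent of tested genes (y axis) at least 1.5-fold higher (red) or lower (blue) in youth, for genes with and without a symbol, products ending in "like", uncharacterized products without a symbol and new loci (x axis, number tested in brackets). Genes with a symbol have the lowest bars, at 1.101% higher and 3.002% lower.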

How the data were processed

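Messenger RNA of 3 libraries (kid, youth and adult, 1 each) was sequenced, and the authors deposited 1 table of FPKM values with product text per gene. FastQC, TopHat2 and DESeq were used, per the submitters' processing notes, which give no version or role. No source used here gives the genome build, the annotation or the counting method. Since FPKM divides by the mapped total, abundant genes can shift all others.

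Gene numbers were matched to a reference table of the goat assembly ARS1.2 for symbols (21743 matched, 15302 with a symbol). Whole reads and gene lengths were recovered from the FPKM steps (tolerance 5e-05 of a read, rounding allowance 6e-10), which gave reads for all 16054 entries above 0 in all 3 libraries. The shortest length that gave whole reads was kept. Where the true reads of a gene share a factor, the recovered reads and length are too small and the interval is too wide. Recovered reads made up 95.3% and 94.9% of the kid and youth totals. A pseudocount of 1 was added before logarithms, which understates the difference of low genes. Intervals are exact Clopper-Pearson intervals of the 2 libraries' reads at 95%, and a gene of 1 kb needs 0.190 (kid) or 0.201 FPKM (youth) to reach the floor of 3 reads.

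Genes were read into 115 families by symbol or product text, of which 113 had tested members, and a gene may sit in several. In addition, 5 groups were added after the values were seen. The members, the lists and the rule for names were chosen with earlier results of these data known. The rule took the 40 highest and 40 lowest differences at a minimum of 5 FPKM with an interval leaving out 1, up to 4 members per family at a minimum of 2 FPKM with its most abundant member, genes at the thresholds and the 5 most abundant entries per library. Other genes printed were chosen after their values were seen, mostly as family members past 1.5-fold. Values of a few single genes are not reported here. Alternatives were another pseudocount, other filters and 3 scalings. The reading of values was tested on simulated reads. Python 3.11.15, numpy 2.4.6, pandas 2.3.3, scipy 1.17.1 and matplotlib 3.10.9 were used.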

Additional observations from a re-analysis of the deposited data

How the results depend on the processing

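The counts of genes past a fold depended mainly on the pseudocount and the filter. In the order 2-fold higher, 2-fold lower, 1.5-fold higher and 1.5-fold lower, a pseudocount of 0.1 gave 94, 206, 320 and 870 genes, a pseudocount of 5 gave 21, 24, 63 and 100, and a mean of at least 5 FPKM gave 26, 38, 92 and 207 because fewer genes were tested. Quantile normalization gave 303 genes 1.5-fold higher and 284 lower. By arithmetic, a larger pseudocount shrinks every difference, so fewer genes pass a fold. The cause of the change after quantile normalization was not tested. All 4 counts lay within 1.5 times the reported ones with no filter, with the filter on kid and youth alone, with the median ratio brought to 1, with trimmed mean factors and among genes whose interval leaves out 1. The counts of genes whose interval leaves out 1 became 2293 higher and 1940 lower when set against the median ratio, an alternative chosen after seeing the data. No named gene past 1.5-fold changed direction with another pseudocount or scaling. Family medians between -0.08 and 0 can turn sign when the median ratio is brought to 1. No paired analysis was possible because each group had 1 library. Low genes are limited by depth, since few reads give wide intervals.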
